A study of Mus musculus with 12 samples.

Results

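The Cyp2b genes encode a subfamily of cytochrome P450 enzymes, and 5 mouse members, Cyp2b9, Cyp2b10, Cyp2b13, Cyp2b19 and Cyp2b23, were followed in the liver of adult female mice. Of these 5, 4 are among the 19324 genes that the array's annotation names. A gene was measured by every probe set annotated to it, and these were 6 of 45101 probe sets: 1 each for Cyp2b9, Cyp2b13 and Cyp2b19 and 3 for Cyp2b10. None listed several genes, and Cyp2b23 had 0 probe sets, so it is not analysed here.

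All mice were female, of a B6.129 background. They were wild type (WT, Esr1+/+) or αERKO, the label for mice homozygous for a disrupted Esr1 (Esr1-/-), the gene of estrogen receptor alpha; no tissue or cell type that would restrict the disruption is named. Each genotype was fed either NIH-31 chow, called normal diet, or a diet with 60 kcal% fat, called high-fat diet, for 2 weeks. The 4 groups held 3 arrays each. Whether the diets were matched in other ingredients is not said, so diet differences are between whole diets.

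CYP2B enzymes sit in the membrane of the endoplasmic reticulum and oxidise drugs, steroids and fatty acids with electrons from cytochrome P450 reductase. In mouse liver Cyp2b10 is the classical target of the constitutive androstane receptor CAR (Nr1i3), the nuclear receptor through which phenobarbital acts. Cyp2b9 and Cyp2b13 are known as female-predominant liver genes that the pulsatile growth hormone pattern of males keeps low. Cyp2b19 is known as an arachidonic acid epoxygenase of skin keratinocytes.

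The genes lie in 1 cluster on chromosome 7. In the RefSeq gene order Cyp2b10 comes first, then Cyp2b13 and Cyp2b9 with pseudogenes between them, and Cyp2b23 and Cyp2b19 lie beyond Cyp2a4. The promoter windows of RefSeq (build GRCm38.p6), each 300 bases long from 250 before to 50 after the annotated start, were found for 5 of 5 genes. Those of Cyp2b9 and Cyp2b13 are shown because these genes are the pair that differed between the groups while their windows are nearly the same, and capitals mark the bases at which they differ. That of Cyp2b10 is shown for contrast, with its C/EBP core in capitals.
Cyp2b9, chr7:26173159-26173458, + strand: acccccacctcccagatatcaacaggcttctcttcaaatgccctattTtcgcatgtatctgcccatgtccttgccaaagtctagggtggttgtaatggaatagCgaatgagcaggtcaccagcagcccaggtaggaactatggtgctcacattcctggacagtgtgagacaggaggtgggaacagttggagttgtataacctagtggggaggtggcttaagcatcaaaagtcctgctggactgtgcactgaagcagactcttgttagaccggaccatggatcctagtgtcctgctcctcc
Cyp2b13, chr7:26061245-26061544, + strand: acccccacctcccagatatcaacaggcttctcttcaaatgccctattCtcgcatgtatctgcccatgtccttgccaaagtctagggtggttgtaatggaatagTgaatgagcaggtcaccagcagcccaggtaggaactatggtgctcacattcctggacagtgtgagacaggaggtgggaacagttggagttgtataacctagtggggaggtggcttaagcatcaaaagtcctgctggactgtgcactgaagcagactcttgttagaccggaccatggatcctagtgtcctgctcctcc
Cyp2b10, chr7:25897408-25897707, + strand: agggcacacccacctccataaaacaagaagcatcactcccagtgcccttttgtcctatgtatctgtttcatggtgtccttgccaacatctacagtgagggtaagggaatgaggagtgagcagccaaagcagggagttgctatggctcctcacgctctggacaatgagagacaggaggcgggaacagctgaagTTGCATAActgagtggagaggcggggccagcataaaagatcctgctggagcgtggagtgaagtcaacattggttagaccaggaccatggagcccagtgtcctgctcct

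The windows of Cyp2b9 and Cyp2b13 shared 298 of 300 bases (99.3% identity, no gap). Counted from 1 at the 5′ end of the window, with the Cyp2b9 base first and the Cyp2b13 base last, the differences were T48C and C104T. The window of Cyp2b10 was 77.2% identical to either over 289 aligned bases, and 85.1% identical to that of Cyp2b23 over 261 aligned bases. The nuclear receptor core AGGTCA, searched on both strands, began at the same place in Cyp2b9 and Cyp2b13, 138 bases before the start, was also present in Cyp2b19 and Cyp2b23, and was not in the Cyp2b10 window; 16.3% of 32851 RefSeq windows of this length hold it. The C/EBP core TTGCNNAA was in 5 of 5 windows and in 10.8% of all windows. It began 180 bases before the start in Cyp2b9 and Cyp2b13. In Cyp2b10, Cyp2b23 and Cyp2b19 it began 58, 85 and 40 bases before the start. The 5 windows resemble each other, with pairwise identities from 76.9% to 99.3%, so they are not 5 independent cases for any motif. The letters of the STAT5 and BCL6 core TTCNNNGAA (in 8.30% of all windows), the palindromic estrogen response element (0.07%), the GC box GGGCGG (35.7%) and the HNF6 and Cux2 core ATTGAT (7.54%) were in 0 of the 5 windows. The motifs do not overlap each other in these windows, and a match describes letters and not a bound site.

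**Figure D1:**
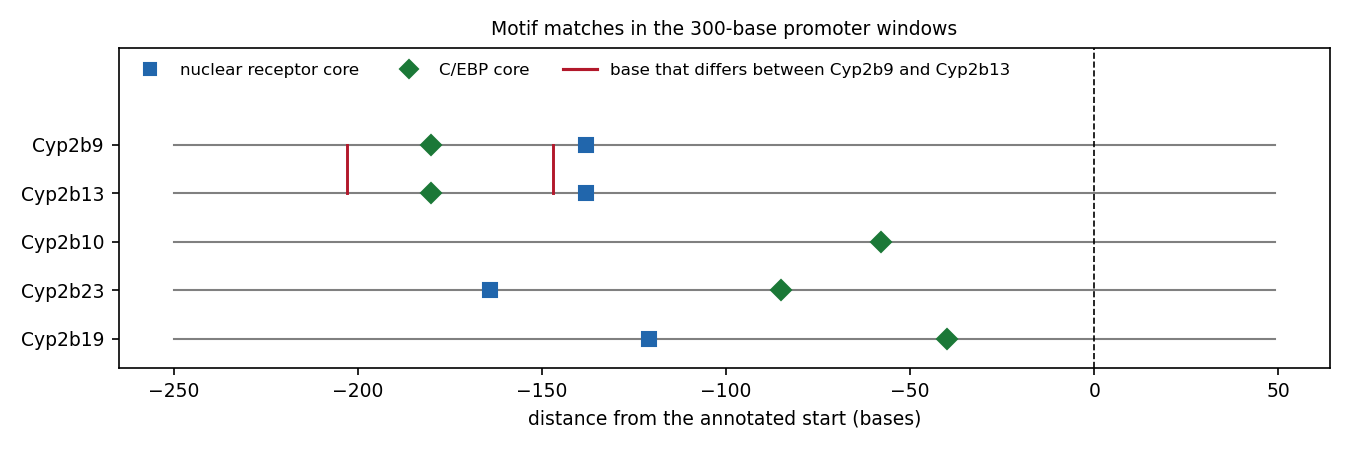
Map of the 300-base promoter windows of the 5 genes, with distance from the annotated start in bases on the x axis, squares for the nuclear receptor core, diamonds for the C/EBP core (TTGCNNAA) and vertical lines for the 2 bases that differ between Cyp2b9 and Cyp2b13. Cyp2b9 and Cyp2b13 carry both motifs at the same places, and the receptor core is missing from Cyp2b10.

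Values are MAS5 signals, 1 linear intensity per probe set and array. Genotype on each diet, diet in each genotype and the interaction of both were tested with limma on log2(signal + 16) over 25354 probe sets that exceeded the array's median signal on at least 3 of 12 arrays, and a probe set was called at an adjusted p under 0.05 (Benjamini-Hochberg). Of the 6 Cyp2b probe sets 5 passed this filter; the Cyp2b19 probe set did not. The Cyp2b13 probe set exceeded the median on 9 of 12 arrays, all but the αERKO normal ones, and the Cyp2b9 and Cyp2b10 probe sets on all 12. The brightest Esr1 probe set, which checks the labels, read 1963 to 3930 on the 6 WT arrays and 586 to 885 on the 6 αERKO arrays, without overlap. The 8 hepatocyte markers were bright on every array, with a mean log2 signal between 15.2 and 15.7; 1 of them, Alb, was called for genotype on normal diet (-0.50 ± 0.10, adjusted p = 0.0360). Transcripts of other tissues were also present. The mean log2 signal of 8 measured pancreatic acinar genes (of 12 listed) was 5.76 to 6.82 on 8 arrays but reached 14.0 on WT normal replicate 2, 13.7 on αERKO normal replicate 1, 12.8 on WT high-fat replicate 3 and 10.2 on WT high-fat replicate 2. That of 10 skeletal muscle genes was 5.57 to 6.79 on 9 arrays and higher on 3 αERKO arrays. These read 10.2 and 7.09 on normal diet (replicates 1 and 2) and 8.13 on high-fat diet (replicate 2). Arrays counted as carrying such transcripts exceeded the median of the 12 array means by more than 2 (acinar) or 1 (muscle). The muscle value of αERKO normal replicate 2, 7.09, was near the highest of the other 9 arrays, 6.79. As in any bulk sample, fewer cells of a type and less RNA per cell cannot be told apart. Whether replicates are separate animals is not stated, and the p-values therefore rest on a spread between samples that may be technical.

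Cyp2b9 and Cyp2b13 were lower in the knockout on normal diet and rose with high-fat diet in the knockout, Cyp2b13 was lower in the knockout on high-fat diet too, and no Cyp2b10 probe set was called. For genotype on normal diet 0 of the 5 tested probe sets were called higher and 2 lower, Cyp2b9 and Cyp2b13, where 0.331% of all probe sets tested were called higher and 0.347% lower (0.678% in all). For genotype on high-fat diet 0 were called higher and 1 lower, Cyp2b13, beside 0.663% and 0.532% (1.2% in all). For diet in the knockout 2 were called higher, Cyp2b9 and Cyp2b13, and 0 lower, beside 0.118% and 0.0631% (0.181% in all). For diet in wild type 0 were called, beside 0.00789% higher and 0.0197% lower (0.0276% in all), with 1913 probe sets at an unadjusted p under 0.05 in limma.

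Over the 6 probe sets, arrays of the compared groups did not overlap for 0 higher and 2 lower for genotype on normal diet (5.89% and 8.74% of all tested), 0 higher and 1 lower on high-fat diet (8.58% and 12.1%), 2 higher and 0 lower for diet in wild type (6.28% and 6.76%), and 2 higher and 0 lower for diet in the knockout (7.41% and 7.6%). In each case these were Cyp2b13 and, except for genotype on high-fat diet, Cyp2b9. The median log2 difference of the 5 tested, of which 3 measure Cyp2b10, was 0.13 and 0.83 for genotype on normal and high-fat diet, beside -0.05 and -0.06 over all probe sets tested. αERKO normal is the low group of both the genotype difference on normal diet and the diet difference in the knockout, so these share arrays.

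**Figure D2:**
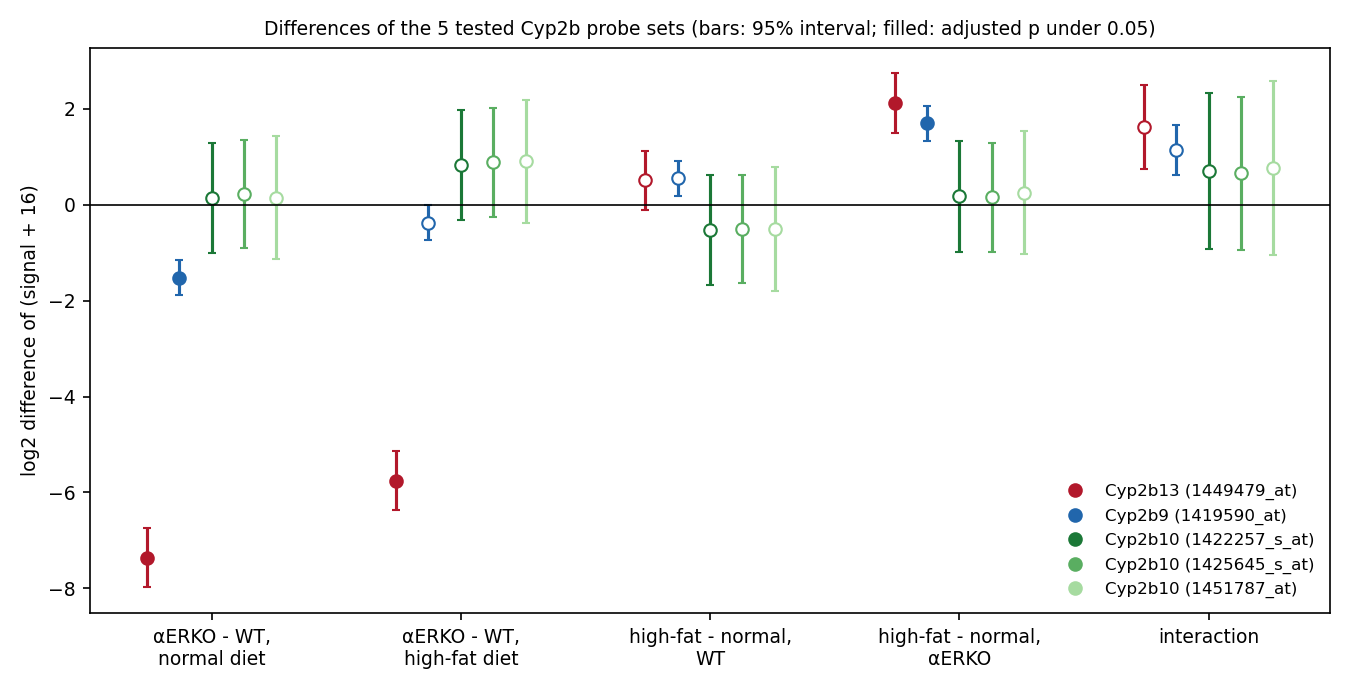
log2 differences of the 5 tested Cyp2b probe sets in the 4 comparisons of 2 groups and the interaction, with 95% intervals as bars and filled points for an adjusted p under 0.05. The Cyp2b13 points lie at -7.36 and -5.75 for genotype, the diet differences in the knockout of Cyp2b13 and Cyp2b9 are 2.12 and 1.69, and every Cyp2b10 interval includes 0.

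Cyp2b13, a female-predominant P450 of mouse liver, showed the widest range of signals in the family. Its signals in WT normal replicates 1 to 3 were 14020, 16196 and 13398 (mean 14538 ± 1469 SD, n = 3). In WT high-fat they were 22210, 20111 and 19544 (20622 ± 1404). In αERKO normal they were 71.1, 70.1 and 75.2 (72.1 ± 2.74). All 3 of these lay under the array median, whereas the lowest wild type value was 13398. In αERKO high-fat the signals were 616, 436 and 180 (411 ± 219), all 3 above the array median. The 4 groups did not overlap, in the order WT high-fat, WT normal, αERKO high-fat, αERKO normal.

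On normal diet the knockout differed from wild type by -7.36 ± 0.29 (SE) in log2 Cyp2b13 signal (adjusted p = 2.20e-09, lower in 3 of 3 samples). Taking each αERKO normal array at its median signal, the fall was at least 145-fold. On high-fat diet the difference was -5.75 ± 0.29 (adjusted p = 4.08e-08), a 53.9-fold lower value, again with no overlap.

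In the knockout, log2 Cyp2b13 signal rose with high-fat diet by 2.12 ± 0.29 (adjusted p = 0.00649). Against the array medians of αERKO normal the rise was at least 3.82-fold. The 3 αERKO high-fat arrays differed among themselves, from 180 to 616, and the 95% interval of the difference ran from 1.50 to 2.74. This call was lost without the intensity trend (adjusted p = 0.107) and with only the compared groups in the fit (adjusted p = 0.12). It was also lost without the 4 arrays with acinar transcripts (2.11, adjusted p = 0.0852) and without the 3 arrays with muscle transcripts (1.95, adjusted p = 0.667), the latter leaving 1 αERKO normal array that is assumed to vary like the others. In wild type the diet difference was 0.51 ± 0.29 (adjusted p = 0.750, interval -0.11 to 1.12), although the 3 high-fat signals all exceeded the 3 normal diet signals. Even the highest αERKO high-fat value, 616, lay far below the lowest wild type value.

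Cyp2b9, the second female-predominant member, was bright in all 4 groups. WT normal arrays read 9550, 11683 and 8361 (mean 9865 ± 1683 SD, n = 3). WT high-fat arrays read 14389, 13465 and 14989 (14281 ± 768). αERKO normal arrays read 2816, 4428 and 3126 (3457 ± 855), and αERKO high-fat arrays 13693, 9968 and 9755 (11139 ± 2214). The αERKO normal group stood alone at the low end, below every array of the other 3 groups. The αERKO high-fat arrays overlapped both WT groups, reaching into WT high-fat with 1 array.

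On normal diet the genotype difference of Cyp2b9 was -1.52 ± 0.17 in log2 signal, a 2.87-fold lower value in the knockout (adjusted p = 0.000259, lower in 3 of 3 samples). On high-fat diet the difference between genotypes was -0.37 ± 0.17 (adjusted p = 0.353, unadjusted p = 0.0467 in limma). Its 95% interval, not adjusted for the number of probe sets tested, ran from -0.74 to -0.01. High-fat diet raised Cyp2b9 in the knockout by 1.69 ± 0.17, a 3.23-fold rise (adjusted p = 0.000602). By p it had rank 3 among 25354 probe sets and was called under all 26 alternatives that gave it a value, with estimates from 1.54 to 1.89. In wild type the diet difference was 0.55 ± 0.17 (adjusted p = 0.458, unadjusted p = 0.00667 in limma). The 3 high-fat signals lay above the 3 normal diet signals, and the unadjusted interval ran from 0.18 to 0.91.

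**Figure D3:**
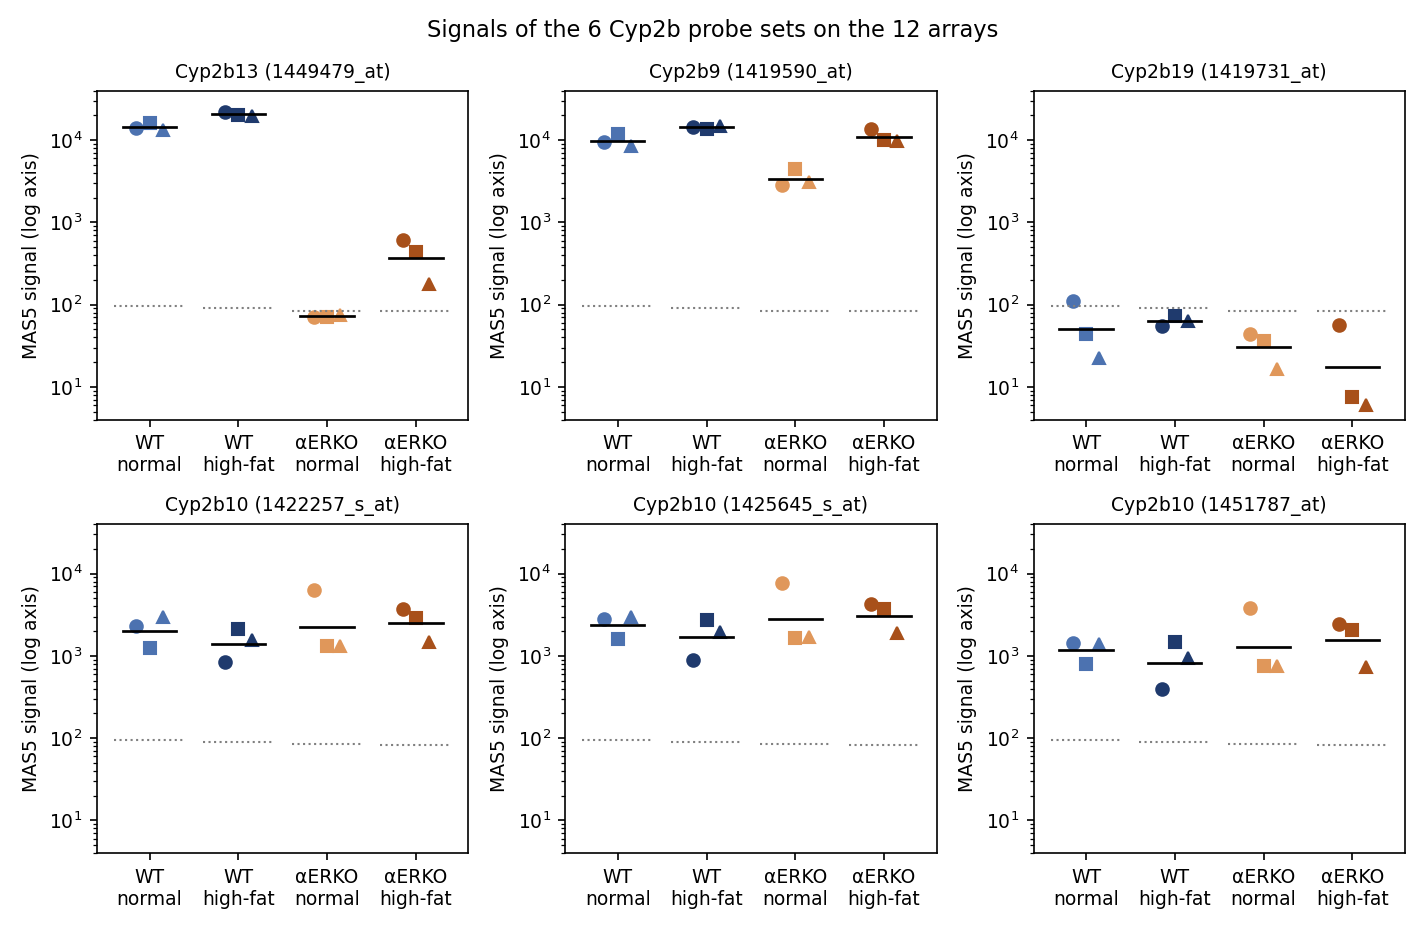
MAS5 signal on a log axis for each of the 6 Cyp2b probe sets, by group, with a marker per array (circle, square and triangle for replicates 1, 2 and 3), black bars at the mean on the log2(signal + 16) scale and dotted bars at the mean array median. Cyp2b13 and Cyp2b9 are lowest in αERKO normal, Cyp2b19 lies near or under the array median throughout, and the Cyp2b10 groups overlap.

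Whether the diet response depended on genotype was asked by the interaction, which subtracts the wild type diet difference from that of the knockout. It was 1.15 ± 0.24 for Cyp2b9 (unadjusted p = 0.000312 in limma, adjusted p = 0.392) and 1.61 ± 0.41 for Cyp2b13 (unadjusted p = 0.00141, adjusted p = 0.570). The Cyp2b13 value depends on αERKO normal signals under the array median: it was 1.81 with a pseudocount of 1 and 1.17 with one of 64, and with those arrays at their median it was at least 1.43, a value with no test. Neither gene passed, and 0 of 25354 probe sets were called for the interaction in limma, with 1369 at an unadjusted p under 0.05. The Cyp2b13 interaction passed only without αERKO high-fat replicate 3, the array with its lowest high-fat signal in the knockout (2.10, adjusted p = 0.00254); over all 25 alternatives its adjusted p lay between 0.00254 and 1. A diet response in the knockout and none called in wild type is thus not shown to differ between the genotypes for either gene.

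Cyp2b9 kept a bright signal where Cyp2b13 had none above the array median. On αERKO normal arrays the Cyp2b13 probe set stayed between 70.1 and 75.2 while the Cyp2b9 probe set on the same arrays read 2816 to 4428. On αERKO high-fat arrays replicate 1 was highest and replicate 3 lowest for both genes. Over the 12 arrays their log2 signals had a Pearson correlation of 0.751, and their deviations from the group means one of 0.461. Both are descriptions of 12 arrays that share the group structure. Transcripts of related genes can bind each other's probes, and transcript and probe sequences were not compared here. The part of this in the Cyp2b9 signals and in the small αERKO high-fat signal of Cyp2b13 was not tested.

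Cyp2b10, the CAR target and the member most used as a sign of drug-type induction, had 3 probe sets that gave the same picture, with pairwise correlations over the 12 arrays from 0.979 to 0.989. The names of 2 of them end in _s_at, the array maker's mark for probes that several related transcripts can share. The brightest of the 3 read 2832, 1598 and 2977 on WT normal arrays (mean 2469 ± 758 SD, n = 3). On WT high-fat arrays it read 886, 2708 and 1940 (1844 ± 915). On αERKO normal arrays it read 7675, 1656 and 1690 (3674 ± 3465), and on αERKO high-fat arrays 4211, 3675 and 1905 (3264 ± 1207). The middle one had group means of 2157 ± 866, 1507 ± 646, 2965 ± 2840 and 2688 ± 1127 in the same order of groups, and the dimmest 1209 ± 357, 931 ± 534, 1767 ± 1759 and 1736 ± 883. The groups overlapped in every comparison, and αERKO normal replicate 1 was the highest of 12 arrays by all 3 probe sets.

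None of the 5 comparisons called a Cyp2b10 probe set. On normal diet the knockout differed by 0.22 ± 0.53 (adjusted p = 0.914) for the brightest and by 0.13 ± 0.54 and 0.14 ± 0.60 for the middle and the dimmest. On high-fat diet the differences were 0.88 ± 0.53 (adjusted p = 0.497), 0.83 ± 0.54 and 0.90 ± 0.60. Without the 4 arrays with acinar transcripts, which leaves 1 WT high-fat array, they were 1.78 (adjusted p = 0.0637), 1.57 and 1.93, and over all alternatives the brightest lay between 0.43 and 1.78 with none called. The 95% interval of the brightest reached from -0.90 to 1.35 on normal diet and from -0.25 to 2.01 on high-fat diet, so that differences within these limits are not excluded. The diet difference of the brightest was -0.51 ± 0.53 in wild type (adjusted p = 0.881). In the knockout it was 0.15 ± 0.53 (adjusted p = 0.961). The array with the highest Cyp2b10 signals, αERKO normal replicate 1, also had high acinar and muscle scores, 13.7 and 10.2. Without it the difference on normal diet turned negative, to -0.50 for the brightest probe set (adjusted p = 0.769), as it did without WT normal replicate 2 (-0.06, adjusted p = 0.977). On the other arrays with acinar transcripts, WT normal replicate 2 and WT high-fat replicates 2 and 3, the brightest probe set read 1598, 2708 and 1940. On the other arrays with muscle transcripts, αERKO normal replicate 2 and αERKO high-fat replicate 2, it read 1656 and 3675. The part of these tissues in the Cyp2b10 values was not tested.

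**Figure D4:**
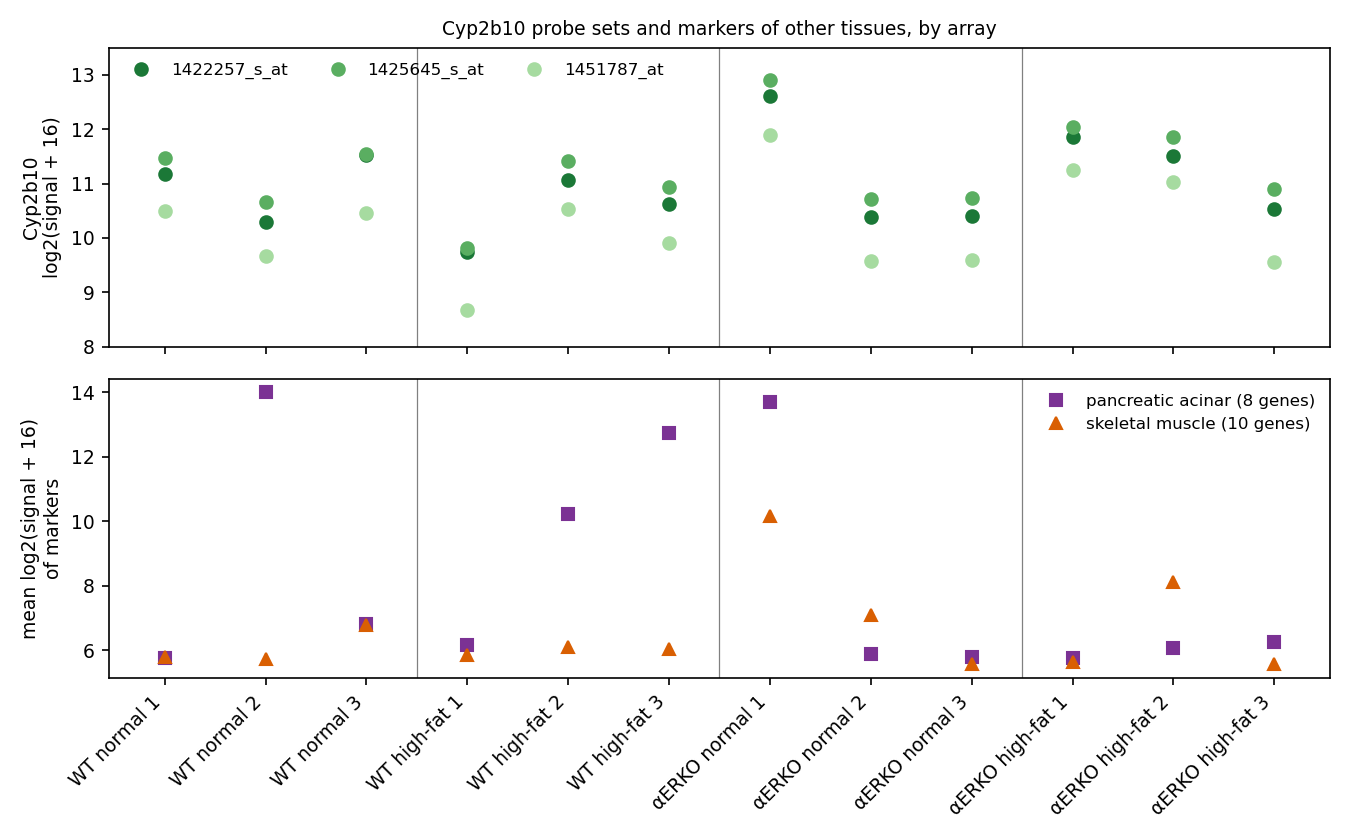
Upper plot, log2(signal + 16) of the 3 Cyp2b10 probe sets on each array (3 shades of green); lower plot, mean log2(signal + 16) of 8 pancreatic acinar and 10 skeletal muscle genes on the same arrays. The 3 probe sets move together, αERKO normal replicate 1 is highest for all of them and has scores of 13.7 and 10.2.

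Cyp2b19, the keratinocyte member, was dim. Its signals were 110, 44.1 and 22.4 in WT normal, 55.5, 72.3 and 63.4 in WT high-fat, 44.4, 35.8 and 16.6 in αERKO normal and 56.2, 7.45 and 6.10 in αERKO high-fat. Only 1 array, WT normal replicate 1, exceeded its array median, so the probe set was not in the main test. With no filter, over 45037 probe sets, none of the 5 differences was called by limma, the largest being -1.25 ± 0.53 for genotype on high-fat diet (adjusted p = 0.437). The 6 keratinocyte markers had a mean log2 signal between 5.95 and 6.89 but were not uniformly low. Krt5, Krt10 and Lor passed the filter, with group means from 224 to 303 for Krt10 and from 174 to 227 for Lor. Krt14, Krt1 and Ivl did not pass it.

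**Figure D5:**
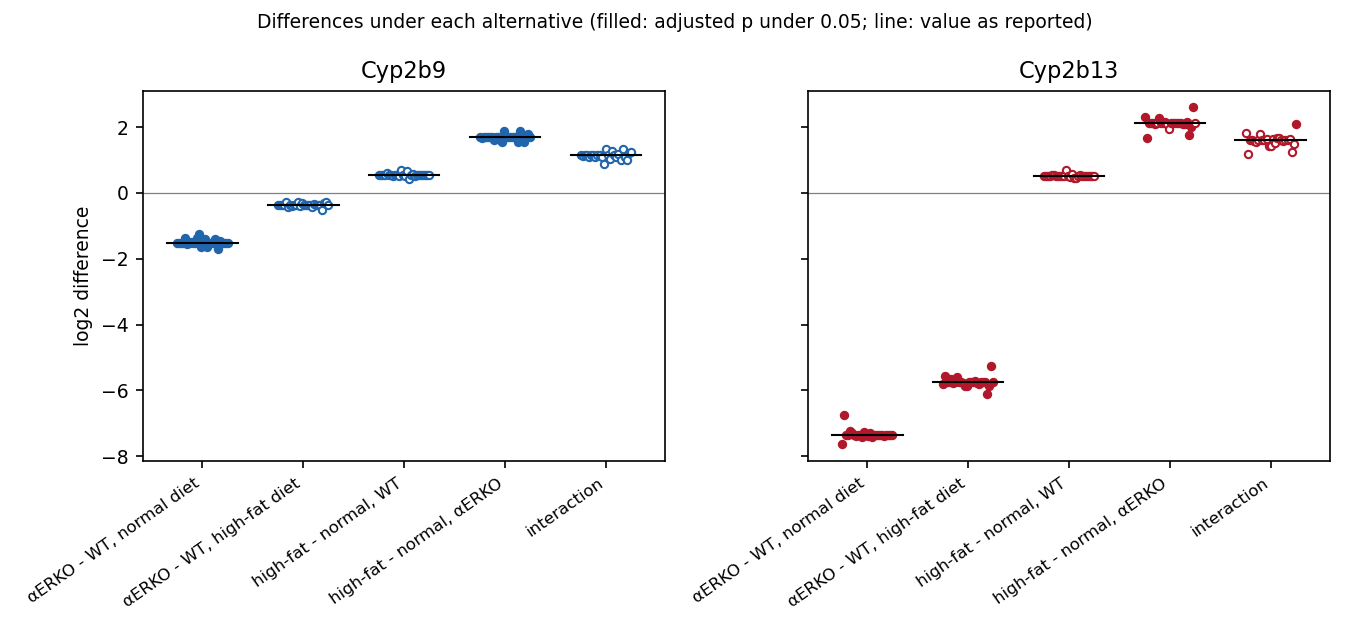
log2 differences of Cyp2b9 and Cyp2b13 under each alternative (points, filled where adjusted p is under 0.05) beside the reported value (line). The signs are the same under every alternative run; for diet in the knockout Cyp2b9 is filled throughout and Cyp2b13 in 22 of 26.

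The regulators of the family were grouped in lists, and the genes called in the fit of all probe sets were counted. No list was tested as a whole. Of 8 measured members of the group around CAR and its relative PXR (Nr1i2), 0 were called in any of the 5 comparisons, where 0.678%, 1.2%, 0.0276%, 0.181% and 0% of all probe sets tested were. Nr1i3, which encodes CAR, had a mean signal of 5310 ± 617 (SD, n = 3) in WT normal and 4375 ± 888 in αERKO normal, a log2 difference of -0.29 ± 0.16 (adjusted p = 0.535), and its diet difference in the knockout was 0.30 ± 0.16 (adjusted p = 0.612). Nr1i2, which encodes PXR, differed by -0.43 ± 0.12 between the genotypes on high-fat diet (adjusted p = 0.106). Por, which encodes the reductase, was not analysed here.

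Among 22 measured CAR and PXR targets outside Cyp2b, 0 were called for genotype on normal diet, 4 higher and 2 lower on high-fat diet, 1 lower for diet in wild type and 1 lower for diet in the knockout. Over all probe sets tested, 0.678% were called for genotype on normal diet, 0.663% higher and 0.532% lower on high-fat diet, 0.0197% lower for diet in wild type and 0.0631% lower for diet in the knockout. Those higher in the knockout on high-fat diet were the glutathione transferases Gsta2 (1.50 ± 0.26) and Gstm2 (0.93 ± 0.20) and the aldehyde dehydrogenases Aldh1a1 (0.41 ± 0.08) and Aldh1a7 (1.01 ± 0.13). Those lower were the P450 Cyp2c37 (-0.45 ± 0.10) and the organic anion transporter Slco1a4 (-0.82 ± 0.18). The adjusted p of these 6 lay between 0.000638 and 0.0470. Aldh1a7 was called in 26 of 26 alternatives and Gsta2 in 23. Gstm2 was called in 17, Aldh1a1 in 16, Slco1a4 in 14 and Cyp2c37 in 10. Leaving out WT high-fat replicate 1 alone ended these last 4 calls (adjusted p from 0.0675 to 0.192). So did leaving out αERKO high-fat replicate 1 alone (adjusted p from 0.0675 to 0.159). Other single arrays ended some of these 4 calls, but none of them ended all 4. The Gsta2 call ended without αERKO high-fat replicate 1, among single arrays. The carboxylesterase Ces2a fell by 1.17 ± 0.12 with high-fat diet in wild type (adjusted p = 0.00460). This call was lost with median centring (adjusted p = 0.197), without the intensity trend (adjusted p = 0.129), without the acinar arrays (adjusted p = 0.165) and without WT high-fat replicate 1 (adjusted p = 0.0547). In the knockout Ces2a fell by 1.22 ± 0.12 (adjusted p = 0.000602), a call lost without the muscle arrays (adjusted p = 0.126). The list's median log2 difference was 0.09 and 0.12 for genotype on normal and high-fat diet and -0.08 for diet in the knockout, beside -0.05, -0.06 and -0.01 over all probe sets tested.

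Of 14 measured genes of growth hormone signalling and sex-dependent liver factors, 1 was called, Cux2, lower in the knockout on both diets, beside 0.347% and 0.532% of all probe sets tested. Cux2 is a female-predominant transcription factor that represses male-biased genes. Its signals were 518 to 838 on the 6 WT arrays, 19.6, 64.9 and 211.6 in αERKO normal and 56.7, 64.1 and 34.3 in αERKO high-fat, where 1 and 0 arrays exceeded the array median. The fitted genotype difference on normal diet was -3.08 ± 0.47 (adjusted p = 0.00383). Without the 3 arrays with muscle transcripts it was -1.69 (adjusted p = 0.0756), and with only the compared groups in the fit its adjusted p was 0.0547. On high-fat diet the fitted genotype difference of Cux2 was -3.34 ± 0.47 (adjusted p = 0.00167). Against the array medians Cux2 was there at least 6.79-fold lower in the knockout, a value with no test. Bcl6, a male-biased repressor, read 974.8 ± 734 and 1542 ± 723 in αERKO on normal and high-fat diet, against 540 ± 34.4 and 621 ± 159 in wild type, and its genotype difference on high-fat diet was 1.20 ± 0.48 (adjusted p = 0.271). Stat5b, the signal transducer of growth hormone, differed by -0.02 ± 0.18 on normal diet (adjusted p = 0.984). Of 4 measured Cyp2 genes of the same chromosome region, 1 was called, Cyp2f2, a P450 of periportal hepatocytes, and it was higher in the knockout, beside 0.331% and 0.663% of all probe sets tested on the 2 diets. The difference was 0.62 ± 0.12 on normal diet (adjusted p = 0.0330). It was 0.67 ± 0.12 with high-fat feeding (adjusted p = 0.0146). The first was called in 12 of 26 alternatives and the second in 20, with adjusted p up to 0.963 and 0.128. Leaving out any 1 of WT normal replicates 1 to 3 or αERKO normal replicates 1 and 2 ended the first. Its adjusted p was then 0.0664 to 0.156. Leaving out WT high-fat replicate 1 or αERKO high-fat replicate 2 ended the second. Of 4 measured periportal markers, only Cyp2f2 was called for genotype. Hal, Pck1 and Ass1 differed by -0.08, 0.12 and -0.09 on normal diet and by -0.22, -0.22 and -0.06 on high-fat diet.

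Other genes followed the same array pattern, by the Pearson correlation of log2 signals over 12 arrays among 12260 genes outside Cyp2b. The arrays share the 4 groups, and the correlations are given as descriptions. The most like Cyp2b13 were Pcp4l1 (0.975), Slc22a26 (0.974), Tafa2 (0.973), Esr1 (0.965) and Nt5e (0.964). Esr1 is the disrupted gene itself, so its difference between the genotypes comes with the design. Slc22a26, an organic anion transporter, had mean signals of 2208, 2242, 224 and 321 in WT normal, WT high-fat, αERKO normal and αERKO high-fat. The most like Cyp2b9 were Ttc23 (0.958), Slc22a29 (0.940), Oas1a (0.925), Spp2 (0.925) and Slc22a27 (0.922). Slc22a29 read 1460, 2096, 373 and 1115 in the same order of groups, and Slc22a27 read 1075, 1288, 121 and 490. For Cyp2b10 they were Acyp2 (0.949), Gde1 (0.930), Ginm1 (0.912), Lurap1l (0.904) and Ube2g2 (0.901).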

How the data were processed

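Each value is a linear intensity, as the authors deposited it: 1 MAS5 signal for every probe set of an array, made in Affymetrix Expression Console per the submitters' processing notes. No version or genome build is given in the sources used here. From the values, each array had been scaled to a mean of 500 without its lowest and highest 2%. MAS5 treats arrays separately, so signals near background scatter widely on a log scale. Array medians lay between 75.6 and 114, and 0 pairs of arrays were identical. Detection flags, scanner files and batches were not used here.

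Gene names are those of the platform annotation, with symbols updated through Entrez identifiers; of 45101 probe sets 34958 had 1 gene symbol, 932 several and 9211 none. The 64 control probe sets were left out. Groups came from the titles. Differences were tested on log2(signal + 16) in R 4.3.3 with limma 3.58.1, as 1 model with a mean per group over 12 arrays, 8 residual degrees of freedom and an intensity trend, two-sided, adjusted over the 25354 probe sets that passed the filter. Errors of signals are SD over 3 arrays, those of differences model standard errors. The 95% intervals are per probe set and not adjusted for the number of probe sets tested. The number of arrays limits the precision, and the median standard error was 0.234. The script was tested on simulated data. Each list gene was represented by its brightest probe set with 1 symbol. Every Cyp2b probe set was named, and from the lists the called genes and Nr1i3, Nr1i2, Por, Stat5b, Cux2 and Bcl6. The 5 genes most like a member were those with the highest correlation. The members, lists, rules and alternatives were chosen with earlier results of these data known.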

Additional observations from a re-analysis of the deposited data

How the results depend on the processing

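Across the alternatives (other pseudocounts, filters, scalings, variance settings, probe set summary, tissue scores, the replicate block and arrays left out), the genotype calls of Cyp2b13 on both diets, and of Cyp2b9 on normal diet, held in all 26 that gave a value, as did the Cyp2b9 call for diet in the knockout. Among these, leaving out the acinar arrays kept 1 WT high-fat array and leaving out the muscle arrays kept 1 αERKO normal array, a lone array being assumed to vary like the other groups. The number of called Cyp2b probe sets for diet in the knockout went from 2 to 1 without the intensity trend, with only the compared groups in the fit, without the arrays with acinar transcripts and without the arrays with muscle transcripts, the last chosen after seeing the data; the call lost was that of Cyp2b13, and the cause was not tested, although the last 3 use fewer arrays. With 1 array left out, the number called for the interaction lay between 0 and 1, and the Cyp2b13 difference for diet in the knockout between 1.76 and 2.60 with an adjusted p of at most 0.0484.

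Some of the uncalled Cyp2b10 differences changed sign: those for genotype on normal diet and for diet in the knockout, and that of the dimmest probe set for diet in wild type. For genotype on normal diet the middle, the brightest and the dimmest probe set were at -0.12, -0.075 and -0.19 with array quality weights, -0.50, -0.34 and -0.48 with tissue scores as covariates, -0.96, -0.79 and -0.90 without the acinar arrays and -0.60, -0.49 and -0.62 without the muscle arrays. With 1 array left out they ranged from -0.61 to 0.51, from -0.50 to 0.60 and from -0.63 to 0.53. For diet in the knockout they ranged from -0.20 to 0.91, from -0.22 to 0.88 and from -0.14 to 1.02, and for diet in wild type the dimmest ranged from -0.92 to 0.0024. The cause was not tested.

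The replicate numbers showed no clear pairing of the samples. Deviations of same-numbered arrays correlated between -0.269 and 0.205, over 0.1 in 5 of 18 pairs. Of 12 arrays, 6 correlated best with their own number. With the replicate block 2, 1, 0, 2 and 0 Cyp2b probe sets were called in the 5 comparisons, as without it, and over all probe sets 159 against 172 for genotype on normal diet. Median centring shifted all genotype differences by 0.14 on normal diet and 0.10 on high-fat diet and moved the share of calls higher in the knockout on normal diet from 48.8% to 60.3%. Counts over all probe sets depended more on the setting. For genotype on normal diet 172 were called, 97 without the trend or with only the compared groups, and 94 and 47 without the acinar and the muscle arrays. For genotype on high-fat diet 303 were called, 161 with median centring, 119 without the trend, 1463 with array quality weights, 149 with tissue scores, 74 and 110 without the acinar and the muscle arrays, and 132 to 437 with 1 array left out. For diet in the knockout 46 were called and in those settings 18, 9, 191, 26, 22, 10 and 17 to 56, with 29 without a filter and 28 with only the compared groups. For diet in wild type 7 were called, and 0 to 22 over all settings.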
